A study of Mus musculus with 12 samples.

Results

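Planar cell polarity (PCP) is the alignment of cells within the plane of a tissue, and 9 genes of this pathway were followed in the developing mouse lung. The members were *Prickle1*, *Prickle2*, *Vangl1*, *Vangl2*, *Celsr1*, *Celsr2*, *Celsr3*, *Scrib* and *Ptk7*, taken by symbol from the gene tables. All 9 were among the 51825 genes of the table of CPM (read counts scaled to the same total in every library), and 8 were among the 16152 genes of the count table, from which *Celsr3* was absent. *Prickle1* was chosen because its own level and the use of one of its exons differed between the time-points of these data, so its values are given as a description without a test, and counts of genes that passed a test are over the 8 other members. The members, and the lists of other pathway genes used further on, were chosen with earlier results of these data known. The tests and counts of these genes are therefore not free of that choice.

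RNA of whole lungs from wild-type C57BL/6 mice of both sexes was sequenced in bulk at 2 embryonic time-points, E15.5 and E18.5 (days of gestation), and 2 postnatal ones, P5 and P8 (days after birth). Each time-point had 3 replicates, 12 libraries in all, and the animals carried no transgene and received no treatment. Animals sampled together were littermates, so litter and time-point cannot be told apart and p-values measure the spread among littermates. Libraries held between 41337443 and 53901957 counted reads. Some libraries stood apart from their replicates. The summed level of 6 heart muscle genes was 818 and 939 CPM in E15.5 replicates 1 and 2 against 23.9 CPM in replicate 3, and that of 8 thymocyte genes was 172 and 334 CPM in P8 replicates 1 and 2 against 14.1 CPM in replicate 3. The lung labels held in every library, with 6 epithelial genes at 893 to 1429 CPM and 6 endothelial genes at 813 to 2366 CPM in sum.

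In the core PCP pathway, the atypical cadherins Celsr1 to Celsr3 bridge neighbouring cells, the membrane proteins Vangl1 and Vangl2 gather with cytoplasmic Prickle on one side of a cell, and Frizzled with Dishevelled gathers on the opposite side. Scrib is a scaffold of basolateral polarity that binds Vangl2, and Ptk7 is a receptor-like pseudokinase that acts with the pathway. In the lung, *Celsr1*, *Vangl2* and *Scrib* are known for their role in the branching and shape of the airways.

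Sequence was looked at for *Prickle1*, because the reads at its variable exon described further on were found at one junction. GENCODE vM21 lists 2 transcripts of 8 exons for this gene, which differ in their first exon, at chr15:93595694-93595891 and at chr15:93519264-93519523 of GRCm38, minus strand. RefSeq (GRCm38.p6) has a start site within 11 bases of the first and within 3 bases of the second. The 250 bases before each RefSeq start are shown 5′ to 3′ on the minus strand, with CpG pairs in capitals, because they are what the gene's alternative starts do not share.
Prickle1 upstream start, chr15:93595903-93596152: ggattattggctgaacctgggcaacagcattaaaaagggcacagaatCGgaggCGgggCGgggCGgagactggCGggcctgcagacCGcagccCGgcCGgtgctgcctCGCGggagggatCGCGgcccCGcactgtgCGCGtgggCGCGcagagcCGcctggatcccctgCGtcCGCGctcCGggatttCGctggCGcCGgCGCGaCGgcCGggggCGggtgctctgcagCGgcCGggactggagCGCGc
Prickle1 downstream start, chr15:93519521-93519770: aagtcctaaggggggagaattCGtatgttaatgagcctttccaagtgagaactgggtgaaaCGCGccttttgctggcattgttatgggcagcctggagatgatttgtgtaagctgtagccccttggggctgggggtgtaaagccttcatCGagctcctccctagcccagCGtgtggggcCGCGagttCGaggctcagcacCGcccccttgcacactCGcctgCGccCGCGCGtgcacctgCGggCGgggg
The stretch before the upstream start holds 34 CpG pairs and that before the downstream start 16. Over windows that reach 50 bases past the start, the counts of the letters CG (the same on both strands) were 39 and 20. Of 32851 RefSeq promoter windows of this length, 4.45% held at least as many as the first and 26.5% at least as many as the second. The deposited exon table gave no coordinates for the event, so neither start was assigned to it.

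Between E18.5 and P5, the interval that spans birth, members of the pathway moved in opposite directions. *Celsr1* fell 2.93-fold and *Vangl2* and *Scrib* fell to a lesser degree, while *Prickle2* rose 2.28-fold. Here "rose" and "fell" are used for genes with a false discovery rate (FDR) under 0.05 in edgeR's quasi-likelihood test, adjusted by Benjamini-Hochberg over 15994 genes, and "called" for those that also changed by more than 1 on the log2 scale. Across birth, 2 of the 7 tested members were called, against 26.8% of all genes, with 1 higher (17.5% of all genes) and 1 lower (9.34%). At FDR under 0.05 alone, 6 of 7 passed, against 71.1% of all genes, with 2 higher (35.4%) and 4 lower (35.7%). Their median log2 fold change was -0.30, beside -0.0024 over all genes. From E15.5 to E18.5, 0 of 7 were called against 3.04% of all genes, and 2 passed the FDR alone, 1 higher (against 11.6%) and 1 lower (against 9.87%). From P5 to P8, 0 of 7 were called against 2.96%, and 2 passed the FDR alone, 1 higher (against 9.75%) and 1 lower (against 8.21%). In 6 of 7, the 6 embryonic and 6 postnatal libraries did not overlap in CPM, a pattern that 59.1% of all tested genes had.

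**Figure D1:**
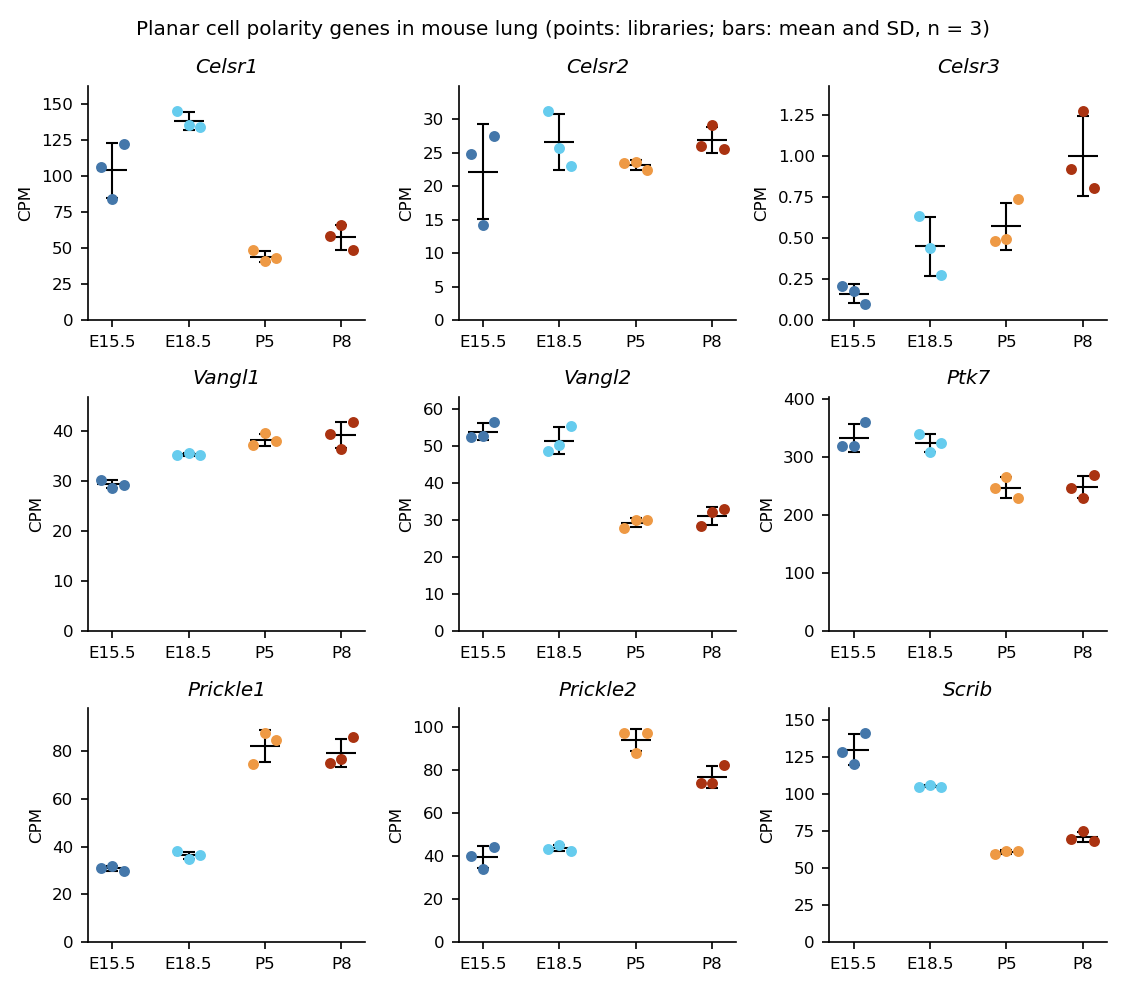
CPM (vertical axis, from 0) of each member in each of the 12 libraries by time-point. Coloured points are libraries and black bars the mean and SD of 3. The postnatal libraries lie below the embryonic ones for *Celsr1*, *Vangl2*, *Scrib* and *Ptk7* and above them for *Prickle1*, *Prickle2* and *Vangl1*, and the ranges overlap for *Celsr2* and *Celsr3*.

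Among the cadherins, *Celsr1* (chr15:85898929-86033777, minus strand), the paralog best known from epithelia, had the largest change between adjacent time-points of the 7 members tested in the count table. Its levels were 106, 84.5 and 123 CPM at E15.5, 145, 136 and 134 CPM at E18.5, then 48.7, 40.9 and 43.4 CPM at P5, and 58.8, 65.9 and 48.7 CPM at P8. Every postnatal library was below every embryonic library, and the highest time-point was E18.5. Across birth (E18.5 to P5) its log2 fold change was -1.55 ± 0.14 (SE, FDR = 8.1e-07). The changes on either side of birth, 0.41 ± 0.14 from E15.5 to E18.5 (FDR = 0.05, just missing the threshold) and 0.36 ± 0.14 from P5 to P8 (FDR = 0.09), did not pass. Without the 4 heart-rich and thymus-rich libraries, which left only replicate 3 at E15.5 and at P8, these were 0.17 and 0.11. With other settings the first passed in 8 of 21 alternatives (lowest FDR = 0.014), and the second in 3 of 21 (lowest FDR = 0.032). The order was therefore E18.5, E15.5, P8 and P5, in which the step from E15.5 to P8 differed beyond the spread (log2 fold change -0.78, FDR = 0.00023) and both outer neighbours did not. In whole-lung RNA, fewer cells of a type and less RNA per cell cannot be told apart. Of 6 epithelial markers, 5 had a lower mean at P5 than at E18.5, among them *Epcam* (209 and 63.8 CPM) and *Cdh1* (227 and 185 CPM), and *Cldn18* had a higher one (246 and 676 CPM). The sum of the 6, which *Cldn18* dominates at P5, was 1006 to 1199 CPM before and 1179 to 1265 CPM after birth. All 6 proliferation genes had lower means at P5, and their sum went from 1401 to 1471 CPM down to 512 to 544 CPM. The part of these markers in the result was not tested.

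*Celsr2* (chr3:108390851-108415552, minus strand), a second cadherin of this family, showed no change that passed the test. It was at 24.9, 14.2 and 27.5 CPM at E15.5, 31.2, 25.7 and 23.1 CPM at E18.5, then 23.6, 23.6 and 22.4 CPM at P5, and 26.0, 29.1 and 25.6 CPM at P8. The embryonic libraries spread most, and their range held every postnatal value. Its log2 fold change across birth was -0.12 ± 0.19 (SE, FDR = 0.6), and none of the 6 pairs of time-points passed, with FDR from 0.12 to 0.72. The low value of *Celsr2* in E15.5 replicate 2 coincided with the lowest *Celsr1* value among embryonic libraries. In that library, 386 genes with transcripts of at least 10 kb had a median log2 difference of -0.40 from the other 2 replicates, against 0.020 for all genes. *Celsr1*, *Celsr2* and *Celsr3* all have transcripts of that length.

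*Celsr3* (chr9:108826320-108852969, plus strand), the paralog best known from neurons, was measured by few reads. The libraries held 13, 9 and 5 reads at E15.5, 31, 23 and 15 at E18.5, 30, 24 and 45 at P5, and 45, 78 and 49 at P8. Every E18.5 library was above every E15.5 library, and every P8 library was at or above every P5 library in reads. In order of age, the mean levels were 0.162 ± 0.0573, 0.450 ± 0.181, 0.572 ± 0.145 and 1.001 ± 0.244 CPM (SD, n = 3). The CPM of this gene were turned back into whole reads to test it, in an edgeR fit of 20143 genes with at least 10 reads in 3 libraries that was added after the data were seen. In that fit *Celsr3* rose and was called from E15.5 to E18.5 (log2 fold change 1.48 ± 0.45, SE, FDR = 0.042), where 2.80% of genes were called. It did not pass from E18.5 to P5 (0.42 ± 0.41, FDR = 0.41) or from P5 to P8 (0.78 ± 0.40, FDR = 0.23), and it was higher at P8 than at E18.5 (1.19 ± 0.41, FDR = 0.022). Against E15.5 it was higher at P5 (1.89 ± 0.44, FDR = 0.0022) and at P8 (2.67 ± 0.45, FDR = 0.00014). The filter was met by the later time-points and not by the E15.5 libraries (13, 9 and 5 reads). The gene thus entered the fit where it was higher, and the comparisons with E15.5 are not free of that choice. All comparisons with E15.5 include its replicate 2, where long transcripts were low, and the part of that library was not tested. In the same libraries, 8 neural and neuroendocrine genes summed to 13.04 to 24.2 CPM before birth and 47.2 to 63.8 CPM after it. *Stmn2* made most of the postnatal sum (means of 8.49 CPM before and 59.7 CPM after birth, E18.5 and P5), and 6 of the 8 had a lower mean at P5 than at E18.5. Their part in the result was not tested.

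Of the Vangl proteins, the membrane components of the pathway that bind Prickle, *Vangl2* (chr1:172000960-172028444, minus strand) fell across birth. It was at 52.5, 52.8 and 56.5 CPM at E15.5, 48.7, 50.2 and 55.5 CPM at E18.5, then 27.9, 30.0 and 30.2 CPM at P5, and 28.5, 32.2 and 33.0 CPM at P8. The libraries formed an embryonic group at or above 48.7 CPM and a postnatal group at or below 33.0 CPM. Across birth (E18.5 to P5) its log2 fold change was -0.72 ± 0.066 (SE, FDR = 7.8e-07). The neighbours within each period did not differ beyond their spread, with FDR = 0.54 between E15.5 and E18.5 and FDR = 0.48 between P5 and P8.

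*Vangl1* (chr3:102153583-102204693, minus strand), its paralog, rose by small steps. It was at 30.2, 28.6 and 29.2 CPM at E15.5, 35.1, 35.6 and 35.1 CPM at E18.5, then 37.0, 39.5 and 38.0 CPM at P5, and 39.4, 36.4 and 41.7 CPM at P8. The first 3 time-points did not overlap, whereas P5 and P8 did. Its first step, between the embryonic time-points, was 0.27 ± 0.063 on the log2 scale (SE, FDR = 0.01), and the step across birth was 0.20 ± 0.062 (FDR = 0.012). The change from P5 to P8 was 0.020 ± 0.062 (FDR = 0.85). The first step was 0.27 without the heart-rich and thymus-rich libraries, a fit that kept only replicate 3 at E15.5 and at P8. The step across birth passed neither without P5 replicate 2 (FDR = 0.055) nor with scaling by library size only (FDR = 0.072).

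Prickle proteins are LIM-domain partners of Vangl. *Prickle2* (chr6:92370908-92706155, minus strand) rose across birth. It was at 40.03, 34.1 and 44.4 CPM at E15.5, 43.4, 45.3 and 42.5 CPM at E18.5, then 96.8, 87.9 and 97.0 CPM at P5, and 73.9, 73.7 and 82.4 CPM at P8. All postnatal libraries were above all embryonic libraries, and P5 was the highest time-point. Across birth (E18.5 to P5) its log2 fold change was 1.19 ± 0.093 (SE, FDR = 2.2e-07), and the level fell by 0.31 on the log2 scale from P5 to P8 (SE 0.092, FDR = 0.036). This decrease did not pass without P5 replicate 1 (FDR = 0.12), P5 replicate 3 (0.099), P8 replicate 1 (0.1) or P8 replicate 2 (0.13). Without the heart-rich and thymus-rich libraries, which left only replicate 3 at E15.5 and at P8, the log2 fold change was -0.22. E15.5 and E18.5 were not separated (0.15 ± 0.093, FDR = 0.26). Endothelial markers moved in the same direction, from 1100 to 1214 CPM in sum at E18.5 to 2234 to 2361 CPM at P5. Means were also higher at P5 for 6 of 6 leukocyte, 6 of 6 heart muscle and 7 of 8 thymocyte genes. The same held for 5 of 6 multiciliated, 4 of 5 mesothelial and 4 of 6 mesenchymal genes. It held for 2 of 8 neural and neuroendocrine, 1 of 6 epithelial and 0 of 6 proliferation genes. The part of these markers in the result was not tested.

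*Prickle1* (chr15:93499114-93595891, minus strand) had a similar course. It was at 31.0, 31.8 and 30.0 CPM at E15.5, 37.9, 34.8 and 36.3 CPM at E18.5, then 74.5, 87.3 and 84.3 CPM at P5, and 74.7, 76.6 and 85.7 CPM at P8. The postnatal libraries were above all embryonic ones, and P5 and P8 overlapped. The log2 difference from E18.5 to P5 was 1.26 ± 0.068 (SE), given without a test because the gene was chosen on this contrast.

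*Scrib* (chr15:76047158-76069784, minus strand) fell over both intervals up to P5. It was at 128, 120 and 141 CPM at E15.5, 105, 106 and 105 CPM at E18.5, then 59.3, 61.3 and 61.8 CPM at P5, and 69.7, 75.2 and 68.3 CPM at P8. No pair of time-points overlapped. On the log2 scale it changed by -0.30 ± 0.061 before birth (SE, FDR = 0.0063), by -0.70 ± 0.061 across birth (FDR = 5.7e-07) and by 0.21 ± 0.061 after P5 (FDR = 0.037). Over the longer interval from E15.5 to P5 the change was -1.001 ± 0.062 (FDR = 2e-08), at the edge of the log2 threshold of 1. The increase after P5 missed the threshold in some alternatives. It missed when any P5 library was left out (FDR = 0.09 to 0.12), and without P8 replicate 1 (0.11) or P8 replicate 2 (0.13). It also missed without E15.5 replicate 1 (0.051) or E18.5 replicate 2 (0.052). Without the heart-rich and thymus-rich libraries, which left only replicate 3 at E15.5 and at P8, the change was 0.14.

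*Ptk7* (chr17:46564471-46629504, minus strand) was the most abundant member and changed little. It was at 319, 320 and 361 CPM at E15.5, 341, 309 and 324 CPM at E18.5, then 246, 266 and 230 CPM at P5, and 247, 230 and 269 CPM at P8. Embryonic and postnatal libraries did not overlap, although the fold was small. Across birth (E18.5 to P5) its log2 fold change was -0.30 ± 0.083 (SE, FDR = 0.0057). The neighbours within each period did not differ beyond their spread (FDR = 0.82 and FDR = 0.95).

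Per kilobase of annotated exon, the scale on which levels of different genes can be set side by side, *Ptk7* stood at 60.3 CPM per kb before birth (E18.5) and 46.0 CPM per kb after it (P5), the highest member at both. At E18.5 *Scrib* (16.3 CPM per kb) and *Celsr1* (12.6 CPM per kb) came next. At P5 *Prickle1* (18.9 CPM per kb) and *Prickle2* (10.9 CPM per kb) were above *Scrib* (9.43 CPM per kb) and *Celsr1* (4.03 CPM per kb). *Celsr3* was the lowest throughout, at 0.0134 to 0.0830 CPM per kb.

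**Figure D2:**
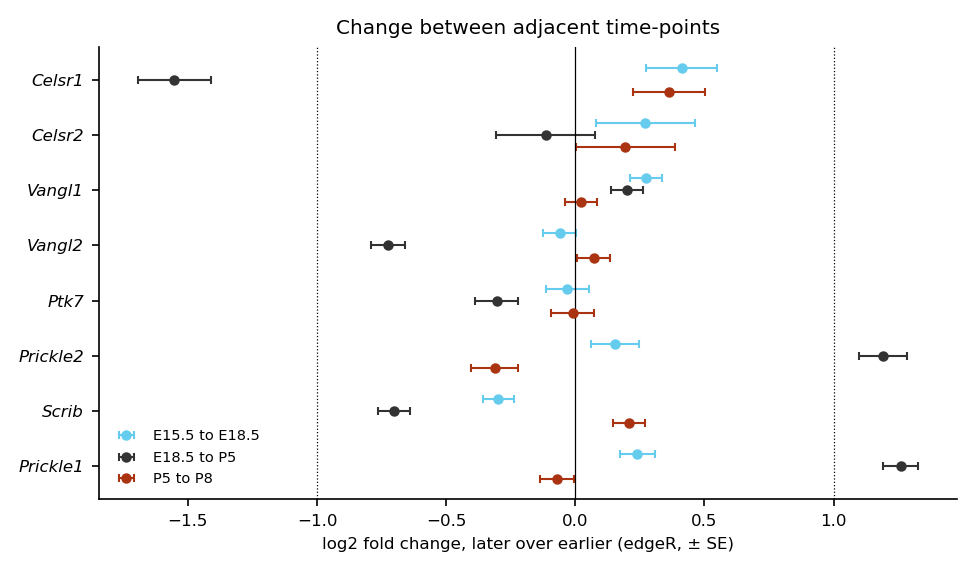
Log2 fold change (horizontal axis) of the 8 members in the count table between adjacent time-points. Bars are standard errors, derived from the log2 fold change and the F statistic of edgeR's test. Dotted lines mark a change of 1 in either direction. Only from E18.5 to P5 do points lie beyond them, *Celsr1* at -1.55, *Prickle2* at 1.19 and *Prickle1*, whose test is left out, at 1.26.

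The balance between paralogs was then measured within each library, where depth cancels out. For *Vangl2* over *Vangl1*, the log2 ratio of reads was 0.80, 0.88 and 0.95 at E15.5, 0.47, 0.50 and 0.66 at E18.5, -0.41, -0.39 and -0.33 at P5, and -0.47, -0.18 and -0.34 at P8. Reads of *Vangl2* were in excess in every embryonic library and reads of *Vangl1* in every postnatal library. The postnatal minus the embryonic mean was -1.06. This separation follows from the levels given above, which did not overlap for either gene and moved in opposite directions, so it is given without a test.

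For *Celsr1* over *Celsr2* the log2 ratio was 2.09 to 2.57 in embryonic libraries and 0.79 to 1.18 in postnatal libraries. These ranges did not overlap, and the postnatal mean differed by -1.32. *Celsr1* by itself was already separated between the periods while *Celsr2* showed no change that passed. Libraries of the same time-point were littermates, so 6 embryonic against 6 postnatal libraries cannot measure the spread among litters. The Celsr ratios are therefore also given without a test. Among embryonic libraries the 2 genes were lowest together in E15.5 replicate 2, and their ratio there, 2.57, was the highest of the series. *Celsr3* over *Celsr2* went the other way, from -8.13 to -5.62 before birth to -5.61 to -4.51 after it, a difference of 1.47. Its mean also differed within the embryonic period, at -7.12 at E15.5 and -5.96 at E18.5. The ranges almost touched, at E18.5 replicate 1 and P5 replicate 1. *Celsr1* over *Celsr3* differed by -2.78, a ratio that shares its genes with the other Celsr ratios. For *Prickle1* over *Prickle2*, described without a test, embryonic ratios of -0.57 to -0.10 overlapped postnatal ratios of -0.38 to 0.057.

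**Figure D3:**
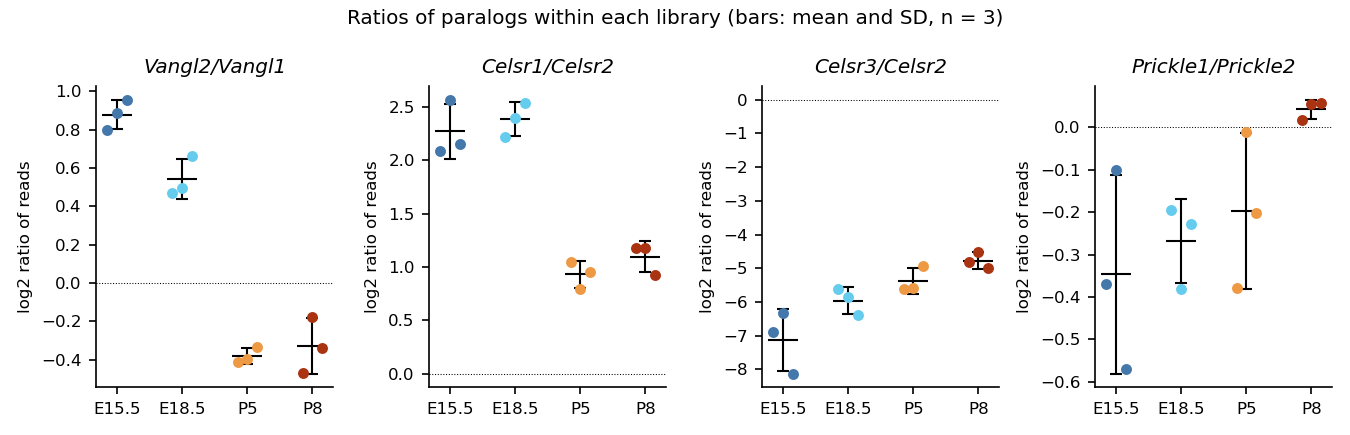
Log2 ratio of the reads of paralogs within each library (vertical axis) by time-point. Points are libraries and bars the mean and SD of 3, and the dotted line marks equal reads. *Vangl2* over *Vangl1* crosses that line between E18.5 (0.47 to 0.66) and P5 (-0.41 to -0.33).

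The exon of *Prickle1* was quantified by the authors as percent spliced-in (PSI), the share of transcripts that include the exon, estimated from reads over its junctions. PSI was 21.95, 25.3 and 18.1% at E15.5, 14.7, 14.3 and 16.2% at E18.5, 71.7, 80.6 and 73.1% at P5, and 62.8, 62.6 and 74.1% at P8. All postnatal libraries were above all embryonic libraries, and the share of all exon events with this separation was not counted. The mean went from 15.1 ± 1.02% at E18.5 to 75.1 ± 4.79% at P5 (SD, n = 3), a difference of 60.1 percentage points that has no test because it chose the gene. The values rest on 25 to 152 corrected reads per library, and exact 95% binomial intervals of the rounded corrected reads, which cover counting error only, ran from 5.17 to 40.7% before birth and from 51.3 to 87.6% after it.

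The reads behind this PSI lay at one of the exon's 2 inclusion junctions. The downstream junction held 9, 15 and 19 reads at E15.5, 10, 11 and 12 at E18.5, 71, 108 and 103 at P5, and 64, 117 and 63 at P8. The upstream junction held 4 reads in E15.5 replicate 2 and 0 reads in the 11 other libraries. The 6 postnatal libraries together thus had 526 downstream and 0 upstream reads, and a count of 0 allows up to 3 reads, or 0.570% of the downstream number. Of 82789 exon events that were covered by at least 10 corrected reads in at least 10 of the 12 libraries, with at least 20 inclusion reads in each postnatal one, 30 (0.0362%) had an inclusion junction without reads in all 6, and in 17 of those it was the upstream one. In the authors' quality column, 7 libraries had the label B3 for junction balance, among them all 6 postnatal ones. The same column scored coverage as LOW or VLOW in 6 libraries, 5 of them postnatal.

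PSI as deposited averages both inclusion junctions. Over the downstream junction and the skipping junction alone it was 33.8 ± 2.83% and 26.2 ± 1.53% at E15.5 and E18.5, and 85.7 ± 3.08% and 79.7 ± 4.67% (SD, n = 3) at the postnatal time-points. Over the upstream junction and the skipping junction alone it was 0 in 11 libraries, where 3 reads would allow 6.52 to 21.4%. Scaled to the same total of mapped reads in every library (RPM), downstream inclusion reads averaged 0.242 in embryonic and 1.55 in postnatal libraries, a ratio of 6.43. Skipping reads averaged 0.575 and 0.325, a ratio of 0.565. The inclusion values did not overlap between the periods (up to 0.374 before and from 1.04 after birth), whereas the skipping values did (0.258 to 0.846 before and 0.181 to 0.572 after). The event was chosen for its PSI change in these libraries, so this separation is a description only. All junction reads of the event together had a ratio of means of 2.26.

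**Figure D4:**
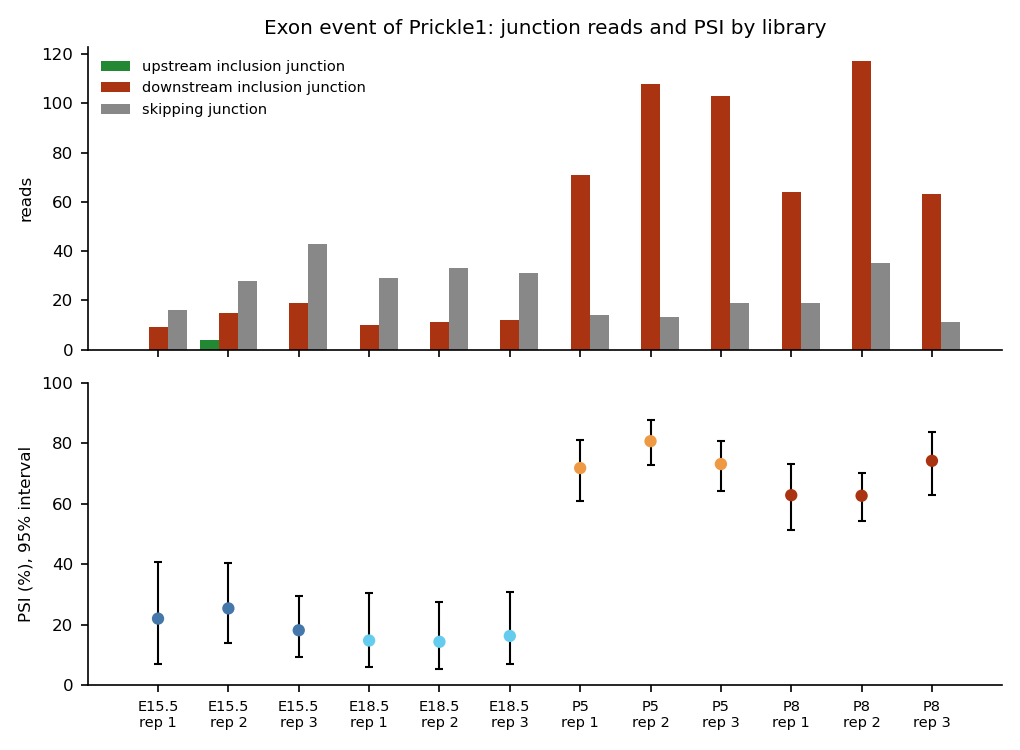
Junction reads (upper panel, bars from 0) and PSI in percent with exact 95% binomial intervals (lower panel) of the *Prickle1* exon in each library. Downstream inclusion reads are 9 to 19 in embryonic and 63 to 117 in postnatal libraries, and upstream inclusion reads are seen in E15.5 replicate 2 alone.

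The other genes of the pathway were taken as 7 lists of 45 genes in all, 44 of them tested. Across birth, 5 of 44 were called, 4 higher and 1 lower, against 26.8% of all genes (17.5% higher and 9.34% lower). At FDR under 0.05 alone, 14 rose and 14 fell, against 35.4 and 35.7% of all genes. From E15.5 to E18.5, 0 were called, and 11 rose and 2 fell at the FDR alone, against 11.6 and 9.87% of all genes. Genes with long transcripts were low in E15.5 replicate 2 (median log2 difference -0.40), and the part of that library in these counts was not tested. From P5 to P8, 0 were called, and 1 rose and 5 fell, against 9.75 and 8.21%. The largest changes were in the Fat and Dachsous cadherins, the giant cadherins of a parallel polarity system, where 2 of 7 genes were called from E18.5 to P5. *Fat3* was at 3.67, 5.55 and 4.36 CPM before birth (E18.5) and at 44.3, 38.3 and 45.6 CPM after it (P5), with a log2 fold change of 3.33 ± 0.17 (SE, FDR = 9.4e-09). *Dchs2* was at 1.81, 1.80 and 1.30 CPM and then 6.57, 6.69 and 6.66 CPM, a log2 fold change of 2.11 ± 0.24 (FDR = 5.4e-06). The median of that list was -0.10, since *Fat1*, *Fat2*, *Fat4* and *Dchs1* had values below 0.

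Among the Wnt/PCP ligands and co-receptors, 1 of 6 was called higher and 1 lower across birth, where 17.5% of all genes were called higher and 9.34% lower. *Wnt5a*, the ligand most tied to PCP, was at 71.0, 65.9 and 55.8 CPM before and at 135, 149 and 146 CPM after birth, without overlap (log2 fold change 1.24 ± 0.10, SE, FDR = 3e-07). *Ror2*, a receptor for Wnt5a, was at 46.7, 43.6 and 43.6 CPM and then 19.5, 22.3 and 19.4 CPM (-1.04 ± 0.084, FDR = 2.9e-07). The ligand and its receptor thus moved in opposite directions, and *Ror1*, the related receptor, fell by 0.67 on the log2 scale (FDR = 7.3e-05) without being called.

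In the list of Frizzled, Dishevelled and other core genes, 0 of 8 tested genes were called from E18.5 to P5, against 26.8% of all genes, and 2 rose and 5 fell, against 35.4 and 35.7%. *Dvl2*, a Dishevelled, went from 56.5, 50.4 and 58.0 CPM to 24.4, 28.4 and 27.2 CPM, a log2 fold change of -0.96 ± 0.082 (SE, FDR = 4.7e-07), just short of the call. Its paralogs changed less, *Dvl1* by 0.26 (FDR = 0.011) and *Dvl3* by -0.15 (FDR = 0.039). The Frizzled receptors were also split, with *Fzd6* higher by 0.79 (FDR = 3.1e-07) and *Fzd3* and *Fzd7* at -0.63 (FDR = 0.0015) and -0.49 (FDR = 5e-06).

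Of 9 cytoskeletal effectors, 1 was called from E18.5 to P5, against 26.8% of all genes. It was *Mapk10*, a Jun kinase, at 0.554, 0.172 and 0.183 CPM before and at 0.899, 1.51 and 1.25 CPM after birth (log2 fold change 2.09 ± 0.60, SE, FDR = 0.0074). Over all libraries its embryonic and postnatal ranges overlapped, since E15.5 replicate 1 was at 1.11 CPM and P8 replicates 1 and 3 at 0.616 and 0.674 CPM. No E18.5 library reached the 1 CPM of the filter, so the gene entered the test through other time-points. The remaining lists held 4 ciliary effectors, 6 genes of Vangl traffic and turnover and 4 of the Scribble module. Of these, 0 were called, against the same 26.8% of all genes. The largest changes there were in the ciliary effector *Intu* (-0.72 ± 0.10, FDR = 4e-05), in *Smurf2*, a ubiquitin ligase that acts on Prickle (0.50 ± 0.078, FDR = 8.9e-05), and in *Dlg5*, a scaffold of the Scribble module (-0.68 ± 0.087, FDR = 1.6e-05).

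**Figure D5:**
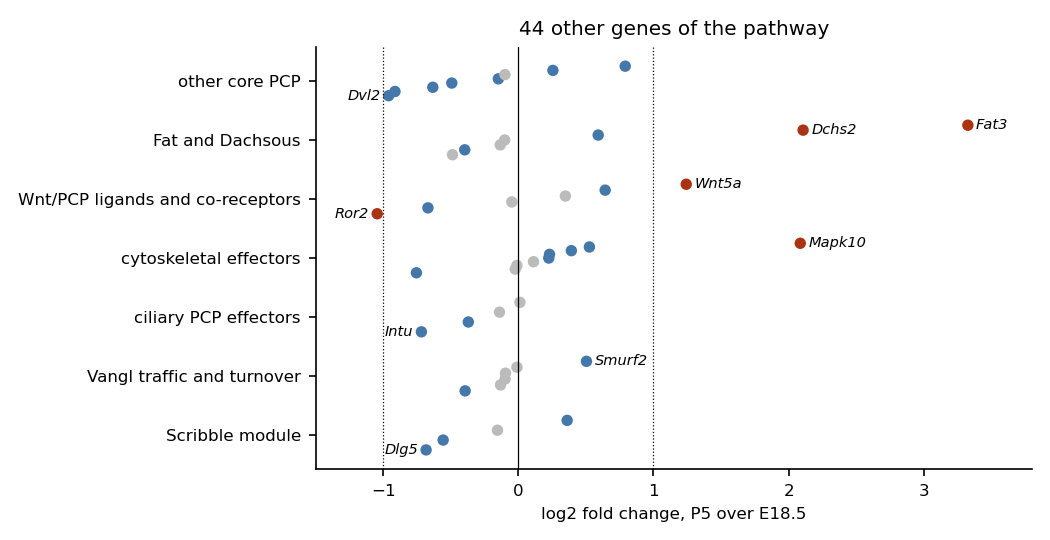
Log2 fold change across birth, E18.5 to P5 (horizontal axis), of the 44 tested genes of the pathway that are not members, by list. Red points were called, blue points had an FDR under 0.05 alone and grey points had neither, and dotted lines mark a change of 1. The 5 red points are *Fat3*, *Dchs2*, *Wnt5a*, *Mapk10* and *Ror2*.

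Genes with the course most like 7 of the members were found by the root mean square (RMS) difference of centred log2 CPM over the 12 libraries, as a description. *Prickle1* was closest to *Pmp22* (RMS 0.062), *Thbd* (0.068), which encodes the endothelial protein thrombomodulin, and *Lmbrd1* (0.077). *Prickle2* was closest to *Nes* (0.075), *Cttnbp2nl* (0.094) and *Ndst1* (0.094). *Vangl2* was closest to *Brd3* (0.045), *Kdm1a* (0.047) and *Rbm17* (0.048), nuclear proteins of chromatin and splicing. *Scrib* was closest to *Eif4g1* (0.051), *Sf3a1* (0.054) and *Pwp2* (0.065), and *Celsr1* was closest to *Fam234b* (0.14), *Zfp395* (0.14) and *Bspry* (0.15). For *Ptk7* they were *Src* (0.063), *Fubp3* (0.064) and *Emilin1* (0.067). For *Vangl1* they were *Zcchc24* (0.061), *Acp2* (0.064) and *Rbm43* (0.066). The standard deviation of the members over the libraries was 0.19 (*Ptk7*) to 0.71 (*Prickle1*) on this scale, so the same RMS is a closer match for a member that varied more.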

How the data were processed

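RNA from whole lungs was sequenced after TruSeq library preparation. Per the labels and the methods, the authors aligned reads to mm10 with TopHat2 2.1.1 and Bowtie2 2.3.4, used the GENCODE vM14 annotation and made raw counts per gene with HTSeq 0.10.0; the deposited count table holds 16152 genes. The authors deposited CPM for 51825 genes, and 100% of non-zero CPM values were whole reads within 0.01, equal to the deposited counts where both exist; the count test on these reads called 5270 of 20143 genes from E18.5 to P5. PSI was deposited in percent, from VAST-TOOLS 2.5.1, with junction reads in a text column. Of the 16152 gene IDs, 16136 matched a symbol.

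Genes with at least 1 CPM in 3 libraries were tested with edgeR 4.0.16 (TMM, quasi-likelihood, all 12 libraries, R 4.3.3), and called at a log2 fold change beyond 1 and FDR under 0.05. Exact binomial intervals used scipy. The fit was tested on simulated data. The alternatives were other scaling and filters, DESeq2 1.42.0, edgeR's likelihood ratio test, 6 libraries alone, a replicate block and each library left out. The members and lists were chosen with earlier results of these data known. Named genes were all members and, per list, up to 3 called genes per direction and comparison by size of change, or else the gene with the largest change from E18.5 to P5; *Fzd3*, *Fzd6*, *Fzd7*, *Dvl1*, *Dvl3*, *Ror1* and the cadherins below 0 were named after their values were seen. Event tables without a gene for the other members were not analysed here. Replicates differed by more than sampling noise. The genes closest in course to *Celsr2* are not reported here, and *Celsr3* was not in the table used for that comparison.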

Additional observations from a re-analysis of the deposited data

How the results depend on the processing

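The counts of called members and of other called pathway genes were within 1.5 times the reported ones under every alternative but these. With FDR under 0.05 alone, 2, 6 and 2 members and 13, 28 and 6 other genes passed in the 3 intervals in order of age. With reads recovered from CPM, chosen after seeing the data, 1 member (*Celsr3*) was called from E15.5 to E18.5. Leaving out 1 library gave 0 to 2 other genes called from E15.5 to E18.5, the 2 being *Dchs2* and *Fat2* without E15.5 replicate 3. The upstream inclusion junction alone gave a *Prickle1* PSI difference of 0, since it had no reads at either time-point; leaving out 1 library gave 57.3 to 61.8 percentage points.

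At FDR under 0.05 alone, the step of *Vangl1* from E18.5 to P5 did not pass under the alternatives named beside it. The same held for the P5 to P8 steps of *Prickle2* and *Scrib*. The steps of *Celsr1* up to E18.5 and after P5 passed under some alternatives. The sign turned only for changes that had not passed the test. With 1 library left out, the log2 fold change ranged from -0.034 to 0.081 for *Vangl1* from P5 to P8, from -0.21 to 0.024 for *Celsr2* from E18.5 to P5, and for *Ptk7* from -0.077 to 0.035 before birth and from -0.086 to 0.052 after P5. For that last change, scaling by library size only gave 0.0051. Without the heart-rich and thymus-rich libraries (chosen after seeing the data) only replicate 3 remained at E15.5 and at P8, and the change was 0.094. In the same fit *Prickle2* was at -0.027 and *Celsr2* at -0.048 from E15.5 to E18.5, and the cause was not tested. Without those libraries the count of called members from E18.5 to P5 was also 2.

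With a replicate block, *Scrib* no longer passed from P5 to P8 (FDR = 0.058). In the 3 intervals in order of age, 0, 2 and 0 members and 0, 5 and 0 other genes were called. The labels' replicate numbers did not pair the samples: deviations of same-numbered libraries correlated between -0.34 and 0.15. Depth limited *Celsr3* and the *Prickle1* junctions.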

Other observations

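E15.5 replicate 2 held fewer reads of long transcripts than its littermates, which bears on the long cadherin genes of the pathway. For 386 genes with a transcript of at least 10 kb, the median log2 difference of a library from its other 2 replicates was -0.40 there, 0.15 in E15.5 replicate 1 and 0.26 in E15.5 replicate 3. In the 9 libraries of the later time-points it lay between -0.12 and 0.088. The same library was the one with reads at the upstream inclusion junction of the *Prickle1* exon (4 reads), and its thymocyte genes summed to 19.4 CPM against 0.807 and 0.629 CPM in the other E15.5 libraries. Whether these values are related was not tested.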
